A study of Mus musculus with 8 samples.

Results

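The genes described here are those of the EGF receptor and its ligands, 10 genes chosen by symbol from the 22740 protein-coding genes counted in mouse skin. They comprised 7 ligand genes (Areg, Ereg, Hbegf, Tgfa, Btc, Epgn and Egf) and 3 receptor genes (Egfr, Erbb2 and Erbb3). All 10 were found in the counts, and all 10 were among the 15163 genes that passed the filter on low counts. RNA sequencing was performed on whole skin of 8 female BALB/c mice, with 2 mice in each of 4 groups. An age of 6 to 8 weeks is given in the study's methods for mice entering the allergen model. The methods do not give the age at which skin was taken. Control (CTL) mice drank plain water, and butyrate-treated mice drank sodium butyrate at 400 mM, a salt of the short-chain fatty acid that gut bacteria make from fibre. Lesional skin came from mice given 4 epicutaneous exposures of 15 µg house dust mite (HDM) extract over 2 weeks, with butyrate begun 2 weeks before the first exposure and continued throughout. Baseline skin came from mice that were given the same water or butyrate but no allergen. All mice, CTL and butyrate-treated, were kept on a low-fibre diet, and no group on another diet was among the samples. The HDM was applied to shaved back skin beneath an occlusive patch. The labels describe the other mice only as baseline, and the study's methods state that baseline mice received no allergen on the skin. The study's methods name vehicle for the baseline skin used in flow cytometry, but whether the baseline mice sequenced here wore a patch is not given in the sources used here. The first number of the sample titles also separates all baseline from all lesional mice, and the labels do not say what it stands for. Allergen, handling, any difference in age and whatever that number marks therefore cannot be told apart in the lesional against baseline comparisons.

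The ligands of the EGF receptor are made as membrane-spanning precursors that metalloproteases cut from the cell surface. The freed ligand makes receptors pair and phosphorylate one another, which starts the MAP kinase cascade. Amphiregulin (Areg), epigen (Epgn), TGF-alpha (Tgfa) and EGF (Egf) bind EGFR, whereas heparin-binding EGF-like growth factor (Hbegf), betacellulin (Btc) and epiregulin (Ereg) bind both EGFR and ERBB4. ERBB2 has no known ligand and acts as a partner of the other receptors, and ERBB3, which has little kinase activity of its own, binds neuregulins. In the epidermis, keratinocytes make most of these ligands themselves, and EGFR signalling is known for driving keratinocyte proliferation and migration and for delaying their terminal differentiation.

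Epgn, Ereg, Areg and Btc lie next to each other on mouse chromosome 5 (GRCm38, bases 91027464 to 91402994), a stretch of 375.5 kb that holds no other protein-coding gene in the GENCODE annotation. Epgn (91027464 to 91035215), Ereg (91074622 to 91093646) and Areg (91139599 to 91148432) are on the plus strand, and Btc (91357261 to 91402994) is on the minus strand. Promoter sequences from RefSeq (GRCm38.p6) were matched for 7 of the 10 genes, each covering 250 bases before and 50 bases after the start site. Those of Areg, Epgn and Btc are shown because Epgn was called higher and Btc lower in lesional skin, and Areg, which lies between them, had the largest log2 fold change of the ligands in CTL mice without passing. Each was searched on both strands for the cAMP response element (TGACGTCA), the TATA box (TATAAA) and the AP-1 site (TGANTCA), and matches are in capitals.
Areg promoter, chr5:91139349-91139648 (plus strand): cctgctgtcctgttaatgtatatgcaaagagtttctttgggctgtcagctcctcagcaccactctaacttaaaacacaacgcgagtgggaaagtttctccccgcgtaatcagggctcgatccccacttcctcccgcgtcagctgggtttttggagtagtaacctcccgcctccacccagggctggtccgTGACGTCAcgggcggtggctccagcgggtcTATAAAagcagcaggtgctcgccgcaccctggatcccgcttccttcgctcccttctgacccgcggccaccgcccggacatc
Epgn promoter, chr5:91027267-91027566 (plus strand): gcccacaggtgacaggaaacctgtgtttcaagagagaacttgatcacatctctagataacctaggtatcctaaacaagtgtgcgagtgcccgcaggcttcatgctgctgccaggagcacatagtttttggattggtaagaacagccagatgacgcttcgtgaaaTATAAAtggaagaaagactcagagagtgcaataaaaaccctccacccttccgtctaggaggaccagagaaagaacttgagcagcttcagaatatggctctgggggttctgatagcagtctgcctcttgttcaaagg
Btc promoter, chr5:91402945-91403244 (minus strand): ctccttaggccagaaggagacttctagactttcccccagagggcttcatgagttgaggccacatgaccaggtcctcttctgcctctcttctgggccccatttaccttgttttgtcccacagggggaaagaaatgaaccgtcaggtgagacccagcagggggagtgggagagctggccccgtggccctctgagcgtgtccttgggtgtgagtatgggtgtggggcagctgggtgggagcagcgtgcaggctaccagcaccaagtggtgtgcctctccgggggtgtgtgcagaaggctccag
The Areg promoter held a cAMP response element whose last base lay 54 bases before the start site, a match found in 1.79% of the 32851 promoters of this length. It also held a TATA box ending 26 bases before the start site, and the Epgn promoter held one ending 81 bases before its own start site. The start site used for Epgn lay downstream of the gene start given above, whereas those of Areg and Btc matched theirs. The TATA box distances of Areg and Epgn are therefore not directly comparable. TATA box letters were found in 13.6% of all promoters. The Btc window held none of the letters searched. AP-1 letters, found in 7.81% of all promoters, were in none of the 8 windows searched, Egf having 2 start sites in the table. These matches describe letters in a window and not bound sites.

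The libraries held 18004136 to 21085544 counts each, and values below are CPM, the counts of a gene scaled to a common library size by TMM. The basal keratinocyte keratins Krt5 and Krt14 were abundant in all 8 libraries, between 3797 and 5945 CPM and between 2420 and 5919 CPM. Krt15, on the same marker list, varied more, from 1860 CPM in baseline CTL mouse 1 to 433 CPM in lesional CTL mouse 4. The baseline butyrate replicate 3 library stood apart from the rest. Its 10 hair follicle marker genes summed to 17868 CPM, compared with 13.4 to 20.1 CPM in the other 7 libraries. In the same library the suprabasal keratinocyte markers summed to 2896 CPM and the skeletal muscle markers to 9140 CPM, compared with 11617 and 41878 CPM in its replicate. Of the suprabasal markers, Ivl and Dsc1 were higher there, at 344 and 292 CPM against 150 and 241 CPM in its replicate. It differed more than 2-fold from its replicate in 26.5% of the 14198 genes with a mean of at least 1 CPM, against 1.43% to 4.81% for the pairs of the other groups. Areg, Tgfa, Btc and Egf were among those genes, so the changes of the members that rest on this library are given with and without it. Since these are bulk samples, fewer cells of a type and less RNA per cell cannot be told apart.

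Per length of gene, the receptors and Ereg led in baseline CTL skin. In baseline CTL skin the mean levels in CPM per kb of merged exons were 31.8 for Erbb3, 23.4 for Erbb2, 17.7 for Ereg, 13.8 for Egfr, 9.70 for Btc, 6.41 for Epgn and 4.36 for Tgfa. Areg at 3.29, Egf at 2.56 and Hbegf at 2.00 CPM per kb stood lowest, and the ranges of Areg and Egf overlapped. In lesional CTL skin Epgn stood first at 34.1 CPM per kb, followed by Erbb3 at 22.0, Areg at 21.4 and Erbb2 at 18.7, neighbours whose ranges overlapped from Erbb3 to Erbb2. Tgfa (13.3), Egfr (13.2) and Hbegf (12.3) also overlapped, and Ereg (8.83), Btc (2.07) and Egf (1.27) were lowest. In lesional butyrate skin Epgn (31.1), Ereg (25.4), Erbb2 (25.4) and Erbb3 (24.6) overlapped at the top. In baseline butyrate skin all neighbours in the order overlapped except Epgn (6.24) and Hbegf (3.34). With the longest transcript as the length, the baseline CTL levels of Egf, Tgfa and Hbegf were 6.05, 6.26 and 3.35 CPM per kb. In lesional CTL skin Hbegf was then at 20.6 CPM per kb, overlapping Areg and Erbb2, Tgfa at 19.1, Egf at 3.02 and Btc lowest at 2.33 CPM per kb.

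The make-up of the ligand transcripts differed between groups of skin. Ereg held 38.5% and 38.3% of the 7 ligands' summed CPM per kb in baseline CTL mice 1 and 2, and 7.74% and 11.4% in lesional CTL mice 4 and 5. Epgn moved the other way, from 14.8% and 12.9% to 33.6% and 39.9%. Btc held 20.1% and 22.2% in baseline CTL skin and 2.03% and 2.43% in lesional CTL skin, while Areg held 7.91% and 6.29% and then 25.7% and 19.8%. In lesional butyrate mice 3 and 4 Epgn held 38.6% and 31.8%, which overlapped lesional CTL skin, whereas Ereg held 31.1% and 26.9% and Areg 7.77% and 9.46%, which did not. The sum itself was 49.2 and 42.8 CPM per kb in baseline CTL, 53.8 and 53.2 in baseline butyrate, 99.3 and 87.3 in lesional CTL, and 119 and 51.0 in lesional butyrate skin, so it was most spread in the lesional butyrate pair. Shares are tied to one another and were not tested. The shares by library are plotted as stacked bars.

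**Figure D1:**
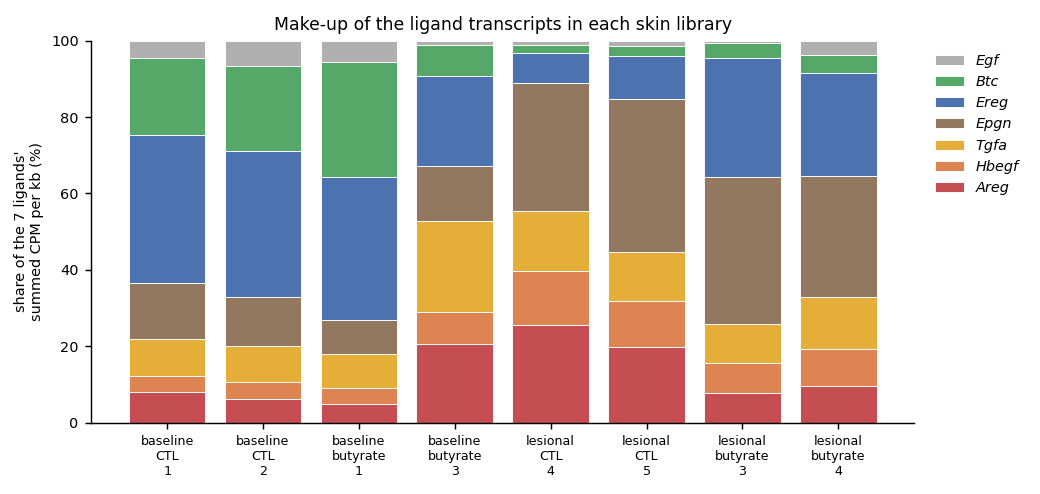
Each bar is 1 skin library and the coloured parts are the share (%) of each ligand gene in the summed CPM per kb of merged exons of the 7 ligands. Ereg takes 38.5% and 38.3% in baseline CTL, 7.74% and 11.4% in lesional CTL and 31.1% and 26.9% in lesional butyrate skin, and baseline butyrate replicate 3 differs from its replicate.

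Exposure to HDM was first examined in CTL mice, where 2 of the 10 genes rose and 0 fell by edgeR's quasi-likelihood test (FDR below 0.1 and fold-change above 2), compared with 3.58% of all genes tested (2.37% higher and 1.21% lower). These were Hbegf and Epgn. The groups did not overlap in 9 of the 10 genes, 4 higher (Areg, Hbegf, Tgfa and Epgn) and 5 lower (Ereg, Btc, Egf, Erbb2 and Erbb3), beside 36.7% higher and 38.5% lower among all genes, so most genes differed in this way between these pairs of mice. At an unadjusted p below 0.05 there were 6 of the 10, beside 19.7% of all genes. The median log2 fold change was 1.61 over the 7 ligands and -0.02 over all genes. Without baseline butyrate replicate 3, which is not in this comparison but enters the shared estimate of the spread, 5 of the 10 genes were called, 4 higher (Areg, Hbegf, Tgfa and Epgn) and 1 lower (Btc), beside 12.5% of all genes (6.33% higher and 6.12% lower).

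Hbegf, a growth factor known for driving keratinocyte migration in wounds, lies on chromosome 18 (bases 36504927 to 36515805, minus strand). It measured 10.45 and 8.94 CPM in baseline CTL, 10.88 and 21.44 CPM in baseline butyrate, 67.73 and 51.18 CPM in lesional CTL, and 44.67 and 24.28 CPM in lesional butyrate mice. All 4 lesional libraries were above all 4 baseline libraries. In CTL mice the mean rose from 9.69 ± 1.07 to 59.5 ± 11.7 CPM (SD, n = 2), a log2 fold change of 2.62 (SE 0.43, FDR = 0.0475). In butyrate-treated mice the log2 fold change was 1.09 (SE 0.41, FDR = 0.352), or 1.66 (SE 0.41, FDR = 0.0749), which passed, without baseline butyrate replicate 3. Averaged over both, it was 1.85 (SE 0.30, FDR = 0.0270), and 2.14 (SE 0.27, FDR = 0.00420) without that library. An exact permutation test of 4 lesional against 4 baseline mice gave p = 0.0286, the smallest this design allows, unadjusted over the 10 genes, and the same value, again the smallest possible, with 3 baseline mice. Of all genes, 8.69% lay higher and 9.31% lower in all 4 lesional than in all 4 baseline libraries.

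Epgn encodes epigen, a ligand that binds EGFR with low affinity. It measured 13.17 and 9.99 CPM in baseline CTL, 8.79 and 13.77 CPM in baseline butyrate, 60.26 and 62.95 CPM in lesional CTL, and 83.14 and 29.31 CPM in lesional butyrate mice. Again all lesional libraries were above all baseline libraries, and both the highest and the lowest lesional values were from butyrate-treated mice. It differed by a log2 fold change of 2.41 (SE 0.51, FDR = 0.0804) in CTL mice and 2.31 (SE 0.51, FDR = 0.193) in butyrate-treated mice, the latter 2.68 (SE 0.65, FDR = 0.0745) without baseline butyrate replicate 3. Averaged over both it was 2.36 (SE 0.36, FDR = 0.0244), and 2.54 (SE 0.41, FDR = 0.00813) without that library, with an exact permutation p = 0.0286 in either case. The change with HDM differed between butyrate-treated and CTL mice by -0.10 (SE 0.69, FDR = 0.973), or 0.27 (SE 0.76, FDR = 0.964) without it.

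Areg, an EGFR ligand that both keratinocytes and immune cells make, measured 4.72 and 3.27 CPM in baseline CTL, 3.16 and 13.34 CPM in baseline butyrate, 30.96 and 21.04 CPM in lesional CTL, and 11.26 and 5.86 CPM in lesional butyrate mice. The lesional CTL pair stood above all other libraries. With 8 mice in the fit, the log2 fold change of lesional against baseline CTL skin was 2.70 (SE 0.71, FDR = 0.127) and did not pass. With baseline butyrate replicate 3 left out it was 2.70 (SE 0.39, FDR = 0.00766) and passed. Lesional against baseline butyrate skin gave 0.05 (SE 0.67, FDR = 0.984) with that library and 1.44 (SE 0.51, FDR = 0.139) without it. The averaged values were 1.37 (SE 0.48, FDR = 0.157) with it and 2.07 (SE 0.33, FDR = 0.00768), which passed, without it.

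Tgfa (chromosome 6, bases 86195223 to 86275719, plus strand) encodes a ligand that keratinocytes use to stimulate their own growth. It measured 30.45 and 26.20 CPM in baseline CTL, 30.95 and 82.65 CPM in baseline butyrate, 100.67 and 72.55 CPM in lesional CTL, and 78.94 and 44.57 CPM in lesional butyrate mice. Except for baseline butyrate replicate 3, all baseline libraries were below all lesional ones. In CTL mice the log2 fold change was 1.61 (SE 0.50, FDR = 0.169), and it passed at 1.61 (SE 0.30, FDR = 0.0152) without that library. In butyrate-treated mice it was 0.12 (SE 0.49, FDR = 0.942) with the library and 0.998 (SE 0.38, FDR = 0.153) without it, and neither passed. Averaged, it was 0.87 (SE 0.35, FDR = 0.198) with it and 1.31 (SE 0.24, FDR = 0.0117), which passed, without it.

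Btc was the 1 ligand called lower in lesional skin with all 8 mice. Its levels were 44.74 and 42.96 CPM in baseline CTL, 73.57 and 19.96 CPM in baseline butyrate, 9.13 and 9.60 CPM in lesional CTL, and 21.67 and 11.35 CPM in lesional butyrate mice. The CTL groups were far apart, and baseline butyrate replicate 3 lay within the lesional butyrate range. Its log2 fold change was -2.23 (SE 0.62, FDR = 0.138) in CTL and -1.501 (SE 0.60, FDR = 0.370) in butyrate-treated mice. Averaged over both, Btc fell, with a log2 fold change of -1.86 (SE 0.43, FDR = 0.0659) by edgeR, while the exact permutation test gave p = 0.0571, or 0.0286 without baseline butyrate replicate 3. The fall passed without baseline butyrate replicate 3 in CTL mice (-2.23, SE 0.29, FDR = 0.00600), in butyrate-treated mice (-2.15, SE 0.32, FDR = 0.0360) and averaged over both (-2.19, SE 0.22, FDR = 0.00264).

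Egf (chromosome 3, bases 129677565 to 129755316, minus strand) gives the family its name and was among the least abundant per length. It measured 25.73 and 31.91 CPM in baseline CTL, 33.15 and 6.24 CPM in baseline butyrate, 13.88 and 14.86 CPM in lesional CTL, and 8.21 and 20.80 CPM in lesional butyrate mice. The CTL groups did not overlap, but the log2 fold change of -1.004 (SE 0.77, FDR = 0.482) did not pass. Averaged over CTL and butyrate it was -0.72 (SE 0.54, FDR = 0.443), and -1.10 (SE 0.31, FDR = 0.0378), which passed, without baseline butyrate replicate 3. The genes most like Egf over the 8 libraries, by Pearson's r of log2(CPM + 1), were Cap2, Hrc and Capn3, with r = 0.997, 0.997 and 0.996. Capn3 and Hrc are known for their expression in muscle. The 6 skeletal muscle markers summed to 36499 and 44295 CPM in baseline CTL, 41878 and 9140 in baseline butyrate, 15608 and 21803 in lesional CTL, and 12522 and 22384 in lesional butyrate mice, and the 2 libraries lowest in Egf were also the 2 lowest in these markers. The part of muscle content in the Egf values was not tested.

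Ereg was the most abundant ligand per length in baseline CTL skin. It measured 78.19 and 67.71 CPM in baseline CTL, 82.81 and 51.45 CPM in baseline butyrate, 31.71 and 41.17 CPM in lesional CTL, and 153.30 and 56.62 CPM in lesional butyrate mice. The lesional CTL pair was lower than all other libraries. The log2 fold change of lesional against baseline skin was -1.001 (SE 0.48, FDR = 0.304) in CTL mice and 0.65 (SE 0.47, FDR = 0.620) in butyrate-treated mice, and neither passed. Without baseline butyrate replicate 3 the latter was 0.34 (SE 0.54, FDR = 0.705).

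**Figure D2:**
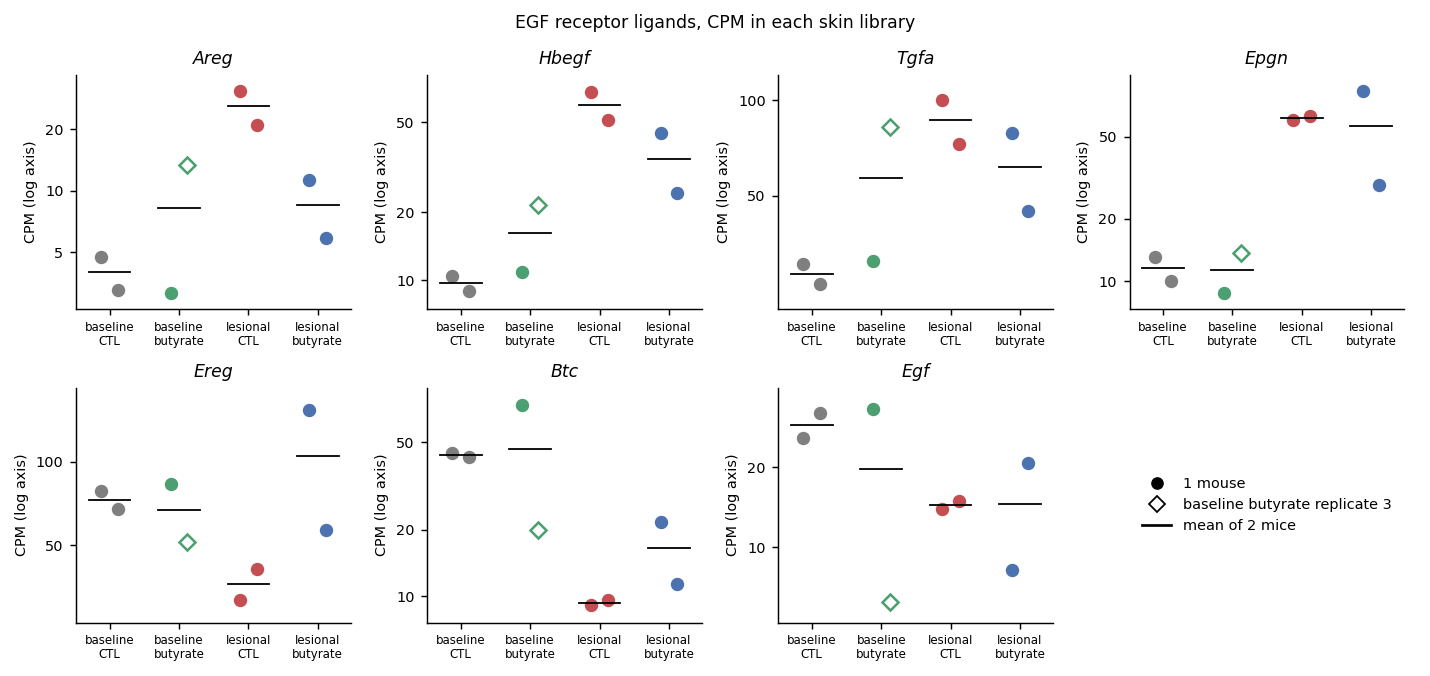
CPM on a log axis for each of the 7 ligand genes by group, with 1 point per mouse, a line at the mean of 2 mice and an open diamond for baseline butyrate replicate 3. All 4 lesional points lie above all 4 baseline points for Hbegf and Epgn, and the lesional CTL points are the highest for Areg and the lowest for Ereg and Btc.

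Averaged over CTL and butyrate-treated mice, 3 of the 10 genes were called in lesional against baseline skin, Hbegf and Epgn higher and Btc lower, compared with 5.22% of all genes (3.38% higher and 1.83% lower). Leaving out baseline butyrate replicate 3 gave 6, Areg, Hbegf, Tgfa and Epgn higher and Btc and Egf lower, compared with 10.7% (4.98% higher and 5.75% lower). In butyrate-treated mice alone 0 of the 10 were called with that library, beside 0.350% of all genes (0.277% higher and 0.0725% lower), and 3 without it (Hbegf and Epgn higher, Btc lower), beside 5.94%. With it, 3 of the 10 had an unadjusted p below 0.05, beside 13.1% of all genes, and DESeq2 called 1 of the 10 and 698 genes in all. Hbegf and Epgn were the 2 genes whose groups did not overlap there, both higher, beside 15.7% higher and 16.9% lower among all genes. The calls also depended on single mice. In fits without 1 of the 4 CTL mice 0 of the 10 genes were called in CTL mice or averaged, and the FDR of Hbegf in CTL mice was 0.216 to 0.415 there, although its log2 fold change was still 2.40 to 2.80. Without lesional butyrate replicate 3 or 4 the FDR of Hbegf in CTL mice was 0.107 and 0.106, and Epgn was the gene called. Averaged, Epgn alone was called without lesional butyrate replicate 3, and Hbegf and Epgn without replicate 4.

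The receptors varied less than the ligands. Egfr (chromosome 11, bases 16752203 to 16918158, plus strand), the receptor for all 7 ligands, measured 170.05 and 141.53 CPM in baseline CTL, 145.95 and 260.80 CPM in baseline butyrate, 142.25 and 156.95 CPM in lesional CTL, and 160.46 and 148.03 CPM in lesional butyrate mice. Apart from the high value of baseline butyrate replicate 3, the libraries lay between 141.53 and 170.05 CPM and all groups overlapped. The log2 fold change of lesional against baseline CTL skin was -0.06 (SE 0.28, FDR = 0.919), and that of lesional butyrate against lesional CTL skin was 0.04 (SE 0.28, FDR = 1.00).

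Erbb2 (chromosome 11, bases 98412470 to 98437716, plus strand) measured 128.54 and 115.00 CPM in baseline CTL, 118.61 and 143.24 CPM in baseline butyrate, 99.07 and 95.58 CPM in lesional CTL, and 154.97 and 109.70 CPM in lesional butyrate mice. The lesional CTL pair was the lowest of the 8 libraries, by a log2 fold change of -0.32 (SE 0.20, FDR = 0.396) against baseline CTL. Erbb3 (chromosome 10, bases 128567523 to 128589652, minus strand) measured 209.84 and 172.78 CPM in baseline CTL, 163.43 and 183.02 CPM in baseline butyrate, 130.40 and 134.71 CPM in lesional CTL, and 169.52 and 126.26 CPM in lesional butyrate mice. Lesional libraries were lower except for lesional butyrate replicate 3. The log2 fold change was -0.53 (SE 0.19, FDR = 0.205) in CTL mice and -0.38 (SE 0.13, FDR = 0.152) averaged, with an exact permutation p = 0.0571, and it did not pass. Leaving out baseline butyrate replicate 3 gave -0.34 (SE 0.13, FDR = 0.0915) averaged, a fold-change below 2, with an exact permutation p = 0.0857. Of the 3 receptors, 0 were called in any of the 6 comparisons.

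**Figure D3:**
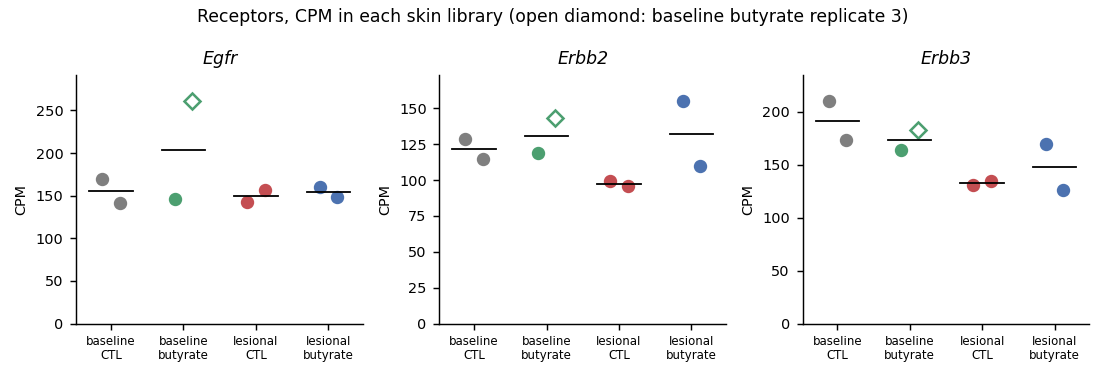
CPM from 0 for each of the 3 receptor genes by group, with 1 point per mouse, a line at the mean of 2 mice and an open diamond for baseline butyrate replicate 3. Egfr lies between 141.53 and 170.05 CPM in 7 libraries and at 260.80 CPM in baseline butyrate replicate 3.

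To ask how butyrate altered these genes in inflamed skin, lesional butyrate was compared with lesional CTL skin. None of the 10 genes passed, and edgeR called 0 of all genes tested (0%). At an unadjusted p below 0.05 there was 1 of the 10, Ereg, beside 4.84% of all genes. DESeq2 also called 0 of the 10, and 124 genes in all. The groups did not overlap in 5 of the 10 genes, 3 higher with butyrate (Ereg, Btc and Erbb2) and 2 lower (Areg and Hbegf), beside 22.4% higher and 22.5% lower among all genes. Without baseline butyrate replicate 3, which is not in this comparison, 0 of the 10 were called again, beside 1.22% of all genes, while 5 of the 10 (Areg, Ereg, Hbegf, Btc and Erbb2) had an unadjusted p below 0.05, beside 14.8%.

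Ereg at 153.30 and 56.62 CPM in lesional butyrate against 31.71 and 41.17 CPM in lesional CTL mice had the largest positive difference of the 10 genes, a log2 fold change of 1.53 (SE 0.48, FDR = 0.903 by edgeR). Most of this came from lesional butyrate replicate 3, and without it the value was 0.64. Areg at 11.26 and 5.86 against 30.96 and 21.04 CPM had the largest negative difference, -1.60 (SE 0.68, FDR = 1.00), and -1.60 (SE 0.36, FDR = 0.129) without baseline butyrate replicate 3. Hbegf differed by -0.79 (SE 0.41, FDR = 1.00), Btc by 0.82 (SE 0.60, FDR = 1.00) and Erbb2 by 0.44 (SE 0.20, FDR = 1.00). Tgfa (-0.49, SE 0.49), Epgn (-0.13, SE 0.48), Egf (0.01, SE 0.76), Egfr (0.04, SE 0.28) and Erbb3 (0.16, SE 0.19) had overlapping groups.

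**Figure D4:**
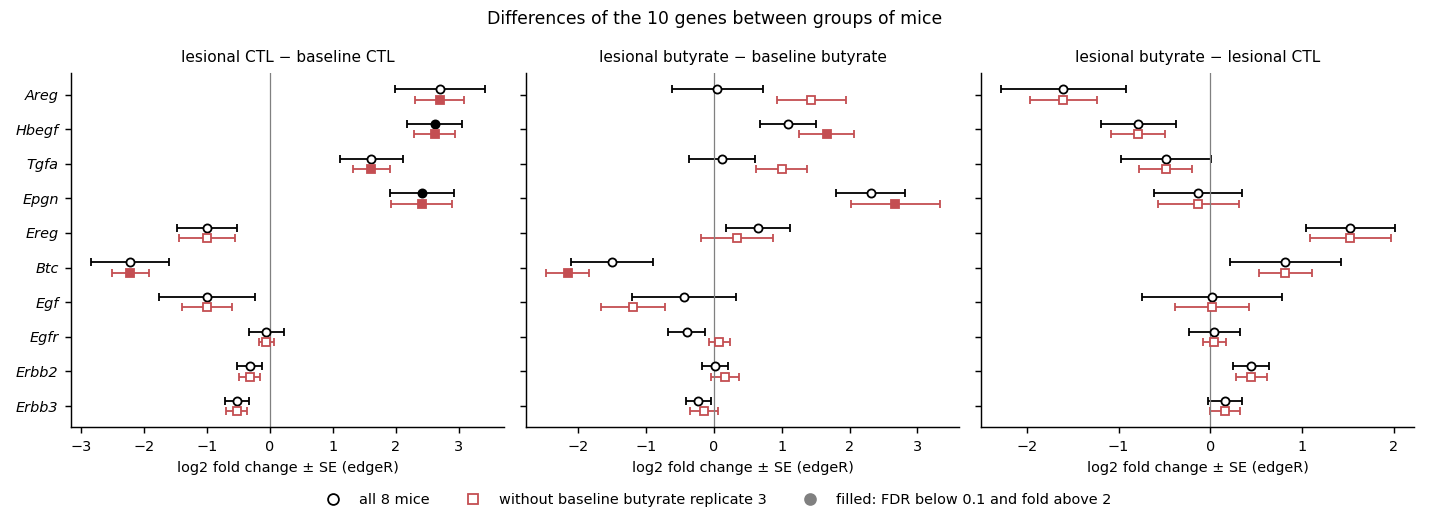
Log2 fold change with its SE from edgeR for the 10 genes in 3 comparisons, with all 8 mice (black circles) and without baseline butyrate replicate 3 (red squares), filled where FDR is below 0.1 and the fold-change above 2. Hbegf and Epgn are filled with all 8 mice in lesional against baseline CTL skin, and no symbol is filled in lesional butyrate against lesional CTL skin.

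In baseline skin, 0 of the 10 genes were called between butyrate-treated and CTL mice by edgeR, with or without baseline butyrate replicate 3, as was the case for all genes (0%). At an unadjusted p below 0.05 there were 0 of 10, beside 3.49% of all genes, and DESeq2 called 0 of 10. Hbegf and Tgfa were higher in both butyrate-treated mice, beside 13.8% of all genes higher and 15.9% lower, yet the first butyrate mouse exceeded the CTL mice by little (10.88 against 10.45 CPM for Hbegf and 30.95 against 30.45 CPM for Tgfa). The log2 fold changes were 0.74 (SE 0.42) and 1.00 (SE 0.50), and 0.17 (SE 0.40) and 0.13 (SE 0.37) without replicate 3. When replicate 1 was left out instead, so that replicate 3 stood alone for its group, 5 of the 10 genes were called (3 higher and 2 lower), beside 24.1% of all genes. The difference of the butyrate effects between lesional and baseline skin was -2.65 (SE 0.97) for Areg, 1.65 (SE 0.67) for Ereg and -1.53 (SE 0.58) for Hbegf, all with an FDR of 0.840 by edgeR. Thus 3 of the 10 had an unadjusted p below 0.05, beside 4.64% of all genes, and 0 of the 10 and 0% of all genes were called. Without baseline butyrate replicate 3 the values were -1.26 (SE 0.63) for Areg, 1.34 (SE 0.70) for Ereg and -0.95 (SE 0.49) for Hbegf, and without replicate 1, 6 of the 10 genes were called, beside 20.9% of all genes.

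Marker genes of other cell types that differed along with the ligands are given here. Krt6a, Krt6b, Krt16 and Krt17, keratins of injured and hyperproliferative epidermis, summed to 1167 and 1018 CPM in baseline CTL, 1039 and 3332 in baseline butyrate, 8548 and 5585 in lesional CTL, and 4859 and 3494 in lesional butyrate mice. Areg followed the same order of groups, and baseline butyrate replicate 3 was high in both. Krt17 held most of the sum in that library, at 2671 CPM, with Krt6a at 597 CPM. Krt6b and Krt16 were not high there, at 19.1 and 44.6 CPM against 57.9 and 66.2 CPM in its replicate. The 10 neutrophil markers summed to 20.2 to 33.4 CPM in baseline skin, 2851 and 1796 CPM in lesional CTL, and 804 and 376 CPM in lesional butyrate mice. S100a8 and S100a9 held most of the lesional CTL sums, at 1000 and 1466 CPM in mouse 4 and 579 and 836 CPM in mouse 5. They also held most of the lesional butyrate sums, at 265 and 445 CPM in mouse 3 and 102 and 169 CPM in mouse 4. The lesional sums therefore mainly follow these 2 genes. In lesional against baseline CTL skin 9 of the 9 markers tested rose, beside 2.37% of all genes. Ly6g was at 0 in 5 libraries and at most 0.23 CPM, in lesional CTL mouse 5. In baseline butyrate replicate 3 Areg was high at 13.34 CPM while the 10 markers summed to 20.2 CPM. The 6 suprabasal keratinocyte markers summed to 12358 and 11713 CPM in baseline CTL, 11617 and 2896 in baseline butyrate, 3172 and 4145 in lesional CTL, and 10788 and 8542 in lesional butyrate mice. Btc was lowest in the lesional CTL pair, where this sum was also low. The markers did not move as a set. Between lesional and baseline CTL skin 4 were lower and 2 (Ivl and Dsc1) higher without overlap, beside 38.5% lower and 36.7% higher among all genes. The 9 mast cell and basophil markers summed to 150 to 222 CPM in baseline and 413 to 525 CPM in lesional skin. The 7 T cell markers summed to 23.3 and 18.5 CPM in baseline CTL, 27.6 and 6.81 in baseline butyrate, 69.9 and 37.5 in lesional CTL, and 43.0 and 33.8 in lesional butyrate mice. In lesional against baseline CTL skin 1 of 7, Cd4, rose, beside 2.37% of all genes, and 6 of 7 were higher without overlap, beside 36.7%. All 7 macrophage and dendritic cell markers and all 7 cell cycle genes were higher without overlap in lesional than in baseline CTL skin, beside 36.7% of all genes, with 0 called. In baseline against lesional CTL skin they summed to 637 and 774 against 1250 and 1430 CPM and to 301 and 295 against 494 and 403 CPM. Cell cycle genes were highest, at 802 CPM, in baseline butyrate replicate 3. The part of these cell types in the ligand levels was not tested.

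**Figure D5:**
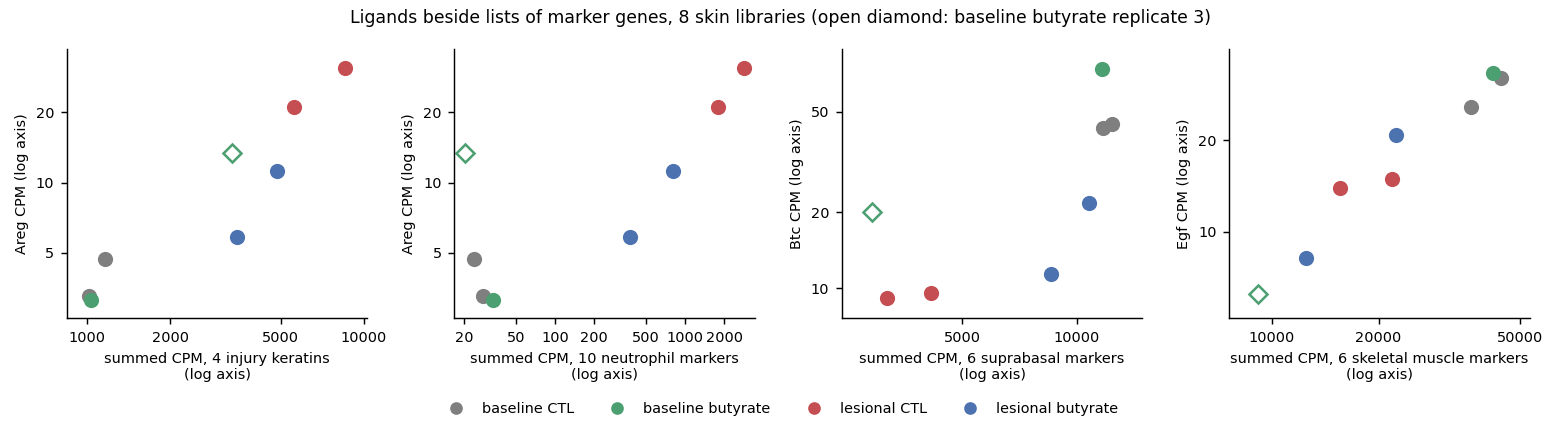
Each point is 1 skin library, with the summed CPM of a marker list on the x axis and the CPM of Areg, Btc or Egf on the y axis, both on log axes. In baseline butyrate replicate 3 Areg is at 13.34 CPM where the injury keratins sum to 3332 CPM and the neutrophil markers to 20.2 CPM, and Egf is lowest where the muscle markers are lowest. Krt17 holds 2671 CPM of that injury keratin sum, and S100a8 and S100a9 hold most of the neutrophil marker sums in lesional skin.

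The wider pathway was examined through lists of related genes. Of all genes, 2.37% were called higher and 1.21% lower in lesional against baseline CTL skin. The shares of all genes without baseline butyrate replicate 3 are given above. Of the other ERBB family genes, 4 of 5 were tested and Nrg3 was at 0 in all 8 libraries. Nrg1, which encodes neuregulin 1, a ligand of ERBB3 and ERBB4, was the 1 gene that rose in lesional against baseline CTL skin. It measured 0.89 and 1.11 CPM in baseline CTL, 0.90 and 2.76 CPM in baseline butyrate, 20.5 and 14.0 CPM in lesional CTL, and 6.25 and 2.65 CPM in lesional butyrate mice. The lesional CTL pair was the highest, and the log2 fold change was 4.10 (SE 0.68, FDR = 0.0476). Lesional butyrate against lesional CTL skin gave -1.95 (SE 0.60, FDR = 0.871), with groups that did not overlap. The median of the 4 was -0.26 in lesional against baseline CTL skin, compared with -0.02 for all genes. With baseline butyrate replicate 3 left out, 1 rose and 1 fell. The 1 that fell was Erbb4, which was at low levels in all libraries. It measured 1.39 and 1.00 CPM in baseline CTL and 0.73 and 0.33 CPM in baseline butyrate mice. In lesional CTL mice it was at 0.27 and 0.18 CPM, and in lesional butyrate mice at 0.24 and 0.88 CPM.

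Of 10 genes that act in shedding the ligands, 0 rose and 1 fell in lesional against baseline CTL skin, with a median log2 fold change of 0.25, and without baseline butyrate replicate 3, 2 rose (Adam8 and Adam12) and 1 fell. The 1 that fell, beside 1.21% of all genes lower, was Timp3, an inhibitor of the sheddase ADAM17. Timp3 measured 590 and 502 CPM in baseline CTL, 523 and 625 CPM in baseline butyrate, 243 and 241 CPM in lesional CTL, and 396 and 383 CPM in lesional butyrate mice. Its levels in lesional butyrate skin lay between those of lesional CTL and baseline skin without overlap. The log2 fold change was -1.17 (SE 0.17, FDR = 0.0389) in lesional against baseline CTL skin, and 0.69 (SE 0.17, FDR = 0.737) in lesional butyrate against lesional CTL skin, where the FDR was 0.0864 with a fold-change below 2 without baseline butyrate replicate 3. Adam8, a metalloprotease of leukocytes, rose in lesional skin averaged over both waters, with a log2 fold change of 1.67 (SE 0.39, FDR = 0.0681), or 1.34 (SE 0.14, FDR = 0.00266) without that library. Adam17, the main sheddase of several of these ligands, measured 93.8 and 91.0 CPM in baseline CTL and 117 and 118 CPM in lesional CTL mice, a log2 fold change of 0.35 (SE 0.15, FDR = 0.267).

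Of 16 early response genes, 3 rose and 0 fell in lesional against baseline CTL skin, with a median log2 fold change of 0.28, and 4 rose without baseline butyrate replicate 3, Junb being the other. These were Fosl1, an AP-1 subunit (2.87, SE 0.67, FDR = 0.0972), Ier3, an immediate early gene (1.498, SE 0.33, FDR = 0.0870), and Phlda1 (1.22, SE 0.20, FDR = 0.0469). Phlda1 measured 16.4 and 17.9 CPM in baseline CTL, 13.8 and 19.0 CPM in baseline butyrate, 42.9 and 37.2 CPM in lesional CTL, and 22.0 and 19.4 CPM in lesional butyrate mice, and its log2 fold change of lesional butyrate against lesional CTL skin was -0.95 (SE 0.20, FDR = 0.737 by edgeR), or FDR = 0.0573 with a fold-change below 2 without that library. Fosl1 measured 6.61 and 3.94 CPM in baseline CTL, 6.43 and 2.67 CPM in baseline butyrate, 36.8 and 40.5 CPM in lesional CTL, and 48.1 and 15.3 CPM in lesional butyrate mice. Like Epgn, Fosl1 had its highest and lowest lesional values in the butyrate pair.

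Of 16 feedback inhibitors of the pathway, 0 were called in lesional against baseline CTL skin, beside 3.58% of all genes, with a median of -0.15. The lowest were Spry1 (-0.92, SE 0.15, FDR = 0.0428) and Lrig3 (-0.84, SE 0.13, FDR = 0.0441), whose FDR passed but whose fold-change was below 2, and the highest were Dusp6 (0.89, SE 0.50) and Dusp5 (0.71, SE 0.44). Sprouty and LRIG proteins restrain receptor signalling, and DUSP6 dephosphorylates ERK. Of 20 adaptor and MAP kinase genes, 0 were called, with a median of -0.01, and among them were Pik3r1 at -0.68 (SE 0.25), Gab1 at -0.55 (SE 0.29) and Stat3 at 0.51 (SE 0.20). In lesional butyrate against lesional CTL skin 0 genes were called in any of these 5 lists, with or without baseline butyrate replicate 3.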

How the data were processed

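Total RNA from whole skin of 8 mice was sequenced after preparation with an Illumina TruSeq RNA kit. The authors aligned reads to GRCm38 with STAR 2.5.2 and deposited raw read counts per gene from featureCounts, in a table whose name states reverse-stranded counting. Whether the kit marks strand is not given in the sources used here, so reads shared by a gene and an antisense partner (Ereg, Tgfa, Egf and Egfr have one annotated) may not be told apart. Samples were grouped by the treatment and disease labels. The treatment label reads vehicle or SCFA (short-chain fatty acid), and the study names butyrate as the SCFA given to the mice whose skin was sequenced. Labels do not say whether replicates shared a cage or litter, so p-values measure only the spread between these mice.

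Counts were filtered (filterByExpr, minimum count 10), scaled by TMM and tested with edgeR 4.0.16 in R 4.3.3 (glmQLFit, robust) over all 8 mice with a mean for each group. Genes were called at an FDR (Benjamini-Hochberg over all 15163 genes) below 0.1 with a fold-change above 2. The study names Voom/Limma, and limma 3.58.1 and DESeq2 1.42.0 were alternatives. Permutation tests were exact and two-sided on log2(CPM + 1). Permutation tests, correlations and pathway lists without baseline butyrate replicate 3 were added after seeing the data. Scripts were tested on simulated data. Members and gene lists were chosen with earlier results of these data known. Genes named were all 10 members, listed genes that were called or else the 2 highest and 2 lowest of a list (1 of which is not reported here), markers, and the 3 genes most correlated with each member among those with a mean of at least 5 CPM, while Adam17 and the values of named genes in further comparisons were added after they were seen. Gene positions and lengths came from GENCODE vM21. Protein sequences were not analysed here. The design text names 16 samples, and the 8 given were analysed.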

Additional observations from a re-analysis of the deposited data

Results flagged for a closer look

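Hbegf was marked because its difference between butyrate-treated and CTL mice ran in opposite directions in lesional and baseline skin, in every mouse. Both lesional butyrate mice (44.67 and 24.28 CPM) were below both lesional CTL mice (67.73 and 51.18 CPM), and both baseline butyrate mice (10.88 and 21.44 CPM) were above both baseline CTL mice (10.45 and 8.94 CPM). In baseline skin butyrate replicate 1 exceeded the CTL mice by little, at 10.88 against 10.45 CPM. Among all genes, 22.5% were lower without overlap in lesional and 13.8% higher in baseline skin, and the share doing both was not counted. The difference of the log2 fold changes, lesional minus baseline, was -1.53 (SE 0.58), and by edgeR's quasi-likelihood test it did not pass (FDR = 0.840). Without baseline butyrate replicate 3 it was -0.95 (SE 0.49). Without replicate 1, so that replicate 3 stood alone for its group, it was -1.92 (SE 0.47). With 2 mice in a group, no sample could be tested for standing apart within its own group.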

How the results depend on the processing

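No paired analysis was made because each group held different mice and the labels give no pairing between them. With 2 mice in a group and 4 residual degrees of freedom, the precision was low, and fits without 1 mouse assumed that the lone mouse of a group varied like the others. A floor of 3 counts in a library equalled 0.138 to 0.169 CPM.

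In lesional butyrate against lesional CTL skin the 10 genes had 0 calls in every setting, while all genes had 0 by edgeR with all mice, 1 with limma-voom, 124 with DESeq2, 14 and 25 with voom and edgeR on the compared groups alone and 188 without both baseline butyrate mice, and 0 to 191 without each mouse. In lesional against baseline CTL skin 2 of the 10 genes became 5 with DESeq2, with voom or edgeR on the compared groups alone and without both baseline butyrate mice, and 1 at an FDR below 0.05. All genes called there went from 543 to 1093, 1913, 1918, 1860 and 245 in that order. In lesional against baseline butyrate skin DESeq2 called 1 of the 10 genes and 698 genes in all, and all genes went from 53 to 0 with voom or edgeR on the compared groups alone, 83 with library totals and 17 at an FDR below 0.05. In baseline skin DESeq2 called 58 genes and for the difference of the butyrate effects 37. Averaged, all genes went from 791 to 465 at an FDR below 0.05 and 1716 with no limit on fold-change. Without each mouse in turn, members called ranged from 0 to 5 in baseline butyrate against CTL skin, 0 to 6 for the difference of the butyrate effects, 0 to 5 in lesional against baseline CTL skin, 0 to 3 in lesional against baseline butyrate skin and 0 to 6 averaged, and all genes from 0 to 3777, 0 to 3275, 0 to 1936, 0 to 2990 and 120 to 1847. The cause was not tested.

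Signs changed only for log2 fold changes that did not pass with all 8 mice. With voom, Btc in baseline skin went from 0.09 to -0.22, or -0.20 on the compared groups alone, and Egf in lesional butyrate against lesional CTL skin from 0.01 to -0.13. With library totals, Egfr in lesional against baseline CTL skin went from -0.06 to 0.070 and Epgn in baseline skin from -0.04 to 0.051. Leaving out each mouse in turn gave, in lesional butyrate against lesional CTL skin, Epgn -1.07 to 0.43, Egf -0.81 to 0.53, Egfr -0.025 to 0.12 and Erbb3 -0.070 to 0.36. In baseline butyrate against CTL skin it gave Areg -0.34 to 1.73, Ereg -0.51 to 0.18, Btc -1.14 to 0.75, Epgn -0.40 to 0.25, Egf -2.21 to 0.20, Egfr -0.094 to 0.74, Erbb2 -0.038 to 0.23 and Erbb3 -0.28 to 0.00135. In lesional against baseline butyrate skin it gave Areg -0.63 to 1.44, Ereg -0.24 to 1.21, Tgfa -0.42 to 0.998, Egf -1.24 to 1.22, Egfr -0.75 to 0.081 and Erbb2 -0.25 to 0.26. In lesional against baseline CTL skin it gave Egfr -0.18 to 0.080, and averaged Ereg -0.62 to 0.11, Egf -1.12 to 0.11 and Egfr -0.41 to 0.012. For the difference of the butyrate effects it gave Epgn -1.03 to 0.48, Egf -0.25 to 2.23 and Egfr -0.69 to 0.14.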

Other observations

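Among the 12327 genes compared with a mean of at least 5 CPM, those most like each ligand over the 8 libraries were named by Pearson's r of log2(CPM + 1), as a description of libraries that share groups and depth. For Areg they were Junb (r = 0.984), an AP-1 subunit, Ccdc71l (0.978) and Prkab1 (0.977). For Hbegf they were Ppp4r1 (0.996), Has3 (0.994), a hyaluronan synthase, and Vmp1 (0.993). For Epgn they were Ercc1 (0.987), Gsdma3 (0.987), a gasdermin of the skin, and Pak1ip1 (0.987). For Tgfa they were Ttll4 (0.990), Nudcd2 (0.988) and Rpl27 (0.987), for Btc Prkcz (0.987), Mmaa (0.981) and Rnf170 (0.975), and for Ereg Gfod2 (0.990), Gpld1 (0.954) and Dnajc21 (0.948). For the receptors they were Fnbp1l (0.981), Rc3h2 (0.981) and Sirt1 (0.979) for Egfr, Bnipl (0.986), Bpifc (0.983) and Rnf181 (0.972) for Erbb2, and Luc7l3 (0.973), Ino80d (0.972) and Stx5a (0.968) for Erbb3. Over the 7 libraries without baseline butyrate replicate 3, an alternative chosen after seeing the data, r with Egfr was 0.798 for Fnbp1l, 0.819 for Rc3h2 and 0.842 for Sirt1, and r of the other genes named was at least 0.95.

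Within the family, r was 0.92 between Areg and Hbegf, 0.94 between Areg and Tgfa, and 0.94 between Hbegf and Epgn, while it was -0.83 between Areg and Btc, which lie in the same cluster on chromosome 5, and -0.54 between Areg and Ereg, its nearest neighbour there. Ereg had an r of 0.77 with Erbb2 and 0.55 with Erbb3. Without baseline butyrate replicate 3 these values were 0.95, 0.95, 0.96, -0.84, -0.53, 0.96 and 0.64 in the order given. All these values with all mice were taken over the same 8 libraries, which fall into 4 groups.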
